A study of Glycine max with 23 samples.

Results

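miR3522 is a microRNA of legumes, described here across 23 small RNA libraries of soybean. Its members were the entries of the expression table whose name holds MIR3522, with identical sequences merged, which gave 3 distinct sequences of the 2839 in the table. They are gso-miR3522a (listed as gso-MIR3522a), gso-miR3522b and miR3522, the last listed for soybean itself. The prefix gso marks microRNAs first named in wild soybean, Glycine soja. A further sequence, M5463-3p, was found outside that rule because its hairpin overlaps that of miR3522, and it is treated as the opposite arm. miR3522 was chosen by its TP5M levels over these same libraries, highest in cotyledons, so its levels are a description and carry no test.

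All libraries came from untreated soybean (Glycine max) of cultivar Williams 82 grown at an experimental station, 1 library for each organ and stage. At germination the organs taken were cotyledon, root, stem and new leaf, and at the trefoil stage old cotyledon, stem, new leaf and old leaf. At flower bud differentiation they were new leaf, old leaf, leaf bud and flower bud. Later organs were buds before flowering, florescence on 2 dates, flowers 5 days after flowering, pods of weeks 1, 2 and 3, developing seeds of about weeks 6, 8 and 10, and senescent leaf. Of the 2 florescence libraries, the first has the tissue label florescence, and the one called other-date here has the tissue label flower. How many plants went into a library is not given in the sources used here. By organ, the leaf had 6 libraries and the flower 5, pods and seeds 3 each, cotyledon and stem 2 each, and the root and the leaf bud 1 each. There are no replicates, so an SD given for an organ is the spread over its stages and not over biological replicates.

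Levels are in TP5M, tags per 5000000 sequenced tags of a library. Library totals recovered from the values ran from 3630000 to 6740000 tags. Intervals given for levels in single libraries are 95% exact Poisson intervals. They cover counting error alone. Reads from PCR copies are not independent molecules, so the intervals may be too narrow even for that. A small RNA table holds no marker genes by which an organ label could be checked. Table columns are numbered, and each was given to the library whose title carries that number. A second, bracketed number in the same titles would give every column to a different library. With the title number the mean correlation of log2 levels was 0.83 for pairs of libraries within an organ (33 pairs) and 0.73 between organs (220 pairs), against 0.76 and 0.74 with the bracket number. Every organ named here rests on the title number.

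In plants a microRNA is cut from a hairpin transcript as a short duplex by a Dicer-like enzyme. One strand is loaded into an Argonaute protein and guides it to complementary messenger RNAs, while the other strand is usually lost. Cotyledons are the storage leaves of the embryo. They make up most of a filling soybean seed, feed the seedling after germination and then senesce.

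The sequences are shown because the members differ only at their ends and because the opposite arm pairs with them. Capitals mark the seed, bases 2 to 8, and letters are written as DNA, as in the table.
gso-miR3522a: tGAGACCAaatgagcagctga
gso-miR3522b: tGAGACCAaatgagcagctgac
miR3522: aGACCAAAtgagcagctga
M5463-3p: aGCTGCTCatctgttctcagg

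gso-miR3522a is 21 nt long and gso-miR3522b is the same sequence with 1 more base at the 3′ end, 22 nt, so both have the seed GAGACCA. The 19 nt entry miR3522 begins at base 3 of gso-miR3522a and therefore has another seed, GACCAAA. No other of the 2839 sequences had either seed. Both gso sequences begin with T (U in RNA), the base preferred by Argonaute 1 in Arabidopsis, whereas miR3522 and M5463-3p begin with A.

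The table places the miR3522 hairpin on chromosome 15, from 4318787 to 4318873 on the plus strand. The genome build is not given in the sources used here. The hairpin of M5463-3p runs from 4318773 to 4318876 on the same strand and covers all 87 bases of the miR3522 hairpin, and M5463-3p itself starts at 4318846 and ends at 4318866. The gso entries carry no coordinates, so that their reads came from this locus is known only from the shared sequence. In RefSeq's annotation of assembly Glycine_max_v4.0, MIR3522, also 87 bases long, lies on chromosome 15 within the span of the protein-coding gene LOC121173607, between LOC102669119 and LOC100797867. Which part of that gene it lies in, and on which strand, was not analysed here.

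Folded against each other, gso-miR3522a and M5463-3p formed 17 base pairs, none of them G-U, with a computed free energy of −25.2 kcal/mol. Bases 1 to 19 of each took part, with 2 unpaired positions inside, and each strand ended in 2 unpaired bases at its 3′ end. Short 3′ overhangs at both ends are the usual mark of a duplex cut by a Dicer-like enzyme.

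gso-miR3522a carried nearly all of the signal of the 3 members. It was found in every library, with a mean of 11049 TP5M, the 9th highest mean of the table, and a median of 2336. It was 110428 TP5M in old cotyledon at trefoil (109760 to 111099) and 48963 in cotyledon at germination (48591 to 49338). These were its highest libraries, and together they held 62.7% of its summed signal. In bulk tissue, fewer cells of a type and less RNA per cell cannot be told apart.

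In both cotyledon libraries gso-miR3522a ranked 2nd of all sequences. Only miR159a-3p, a regulator of MYB transcription factors, stood above it, at 208802 TP5M in old cotyledon and 319773 in germination cotyledon. Next below it was miR398c in old cotyledon (55156 TP5M) and miR166a-3p, a regulator of leaf polarity genes, in germination cotyledon (41497 TP5M). gso-miR3522a made up 2.21% of all tags sequenced from old cotyledon and 12.6% of the summed signal of the table there. In germination cotyledon these shares were 0.979% and 5.76%.

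Below the cotyledons the order of libraries mixed organs. Old leaf at trefoil followed at 36538 TP5M, where gso-miR3522a also ranked 2nd, and then senescent leaf at 16615, germination stem at 7748 and new leaf at trefoil at 5380. The seed of week 10 (4975 TP5M) and the trefoil stem (4822) came next, and their counting intervals overlapped, as did those of the week 6 seed (3753) and the germination new leaf (3731). The week 8 seed stood at 3381 and the old leaf at bud differentiation at 2336.

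The other 11 libraries, below the old leaf at bud differentiation, were root, every flower library, the leaf bud, every pod and 1 new leaf. Flowers at 5 days (956 TP5M), buds before flowering (934), root (856) and the other-date florescence (774) each overlapped the next in counting interval. So did the first florescence (407) and the flower bud (404). At the bottom the week 1 pod (273), the new leaf at bud differentiation (260.2), the week 3 pod (210.0), the leaf bud (197) and the week 2 pod (189) formed a chain of overlapping intervals. In all, 12 of the 22 steps between neighbours in the order exceeded the counting intervals and 10 did not, and the highest library was 585-fold above the lowest.

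**Figure D1:**
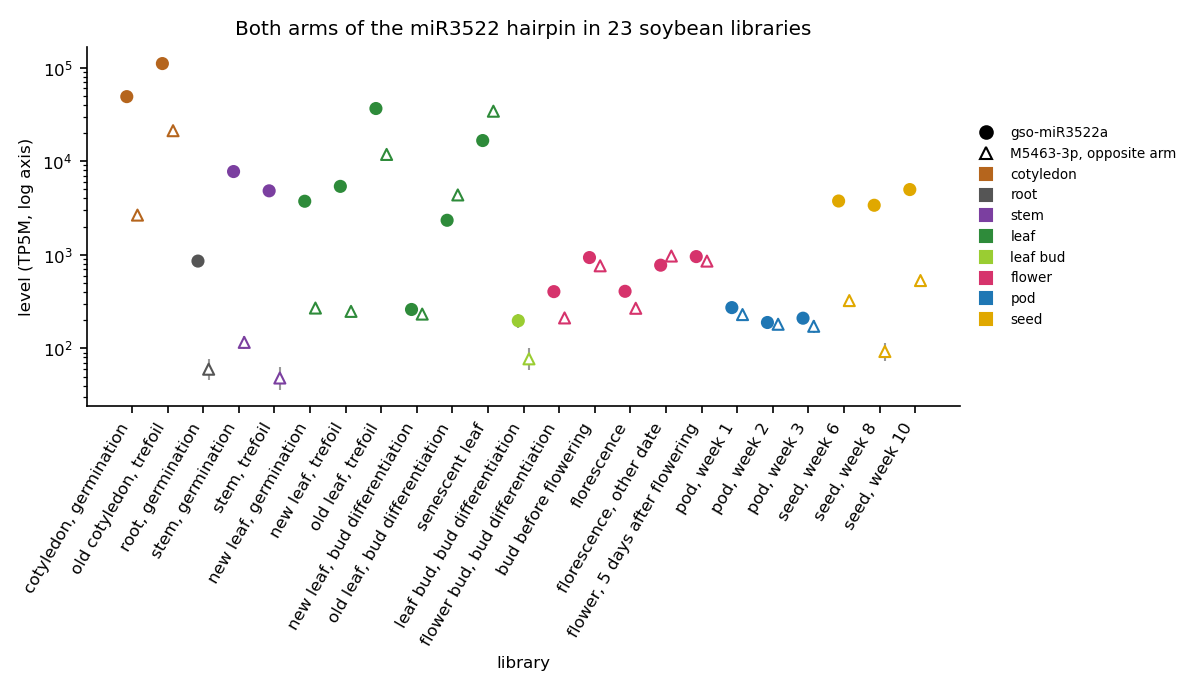
Level of gso-miR3522a (filled circles) and of the opposite arm M5463-3p (open triangles) in TP5M on a log axis, for each of the 23 libraries, coloured by organ. Grey lines are 95% Poisson intervals and are mostly hidden by the symbols. gso-miR3522a peaks in the cotyledons at 48963 and 110428 TP5M, while the triangles peak in senescent leaf at 34199.95.

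By organ, gso-miR3522a averaged 79696 ± 43462 TP5M in cotyledon (SD over stages, n = 2) and 10810 ± 13844 in leaf (n = 6). The means were 6285 ± 2069 in stem (n = 2), 4036 ± 834 in seed (n = 3), 695 ± 273 in flower (n = 5) and 224 ± 43.5 in pod (n = 3). Leaf was the most variable of these relative to its mean, spanning 260.2 to 36538 with a median of 4556.

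Each cotyledon library was above each leaf library, as was the case for 9.75% of the background, the 595 sequences averaging 5 TP5M or more. The log2 difference was 4.05, computed like all those that follow on log2(TP5M + 5), and the means differed 7.37-fold. Leaving out 1 library gave log2 differences from 3.24 (without the new leaf at bud differentiation) to 4.66 (without the old leaf at trefoil), with 3.47 without the old cotyledon and 4.64 without the germination cotyledon. It was 5.29 without both the old leaf at trefoil and the senescent leaf, and the organs did not overlap in any of these. Cotyledons also did not overlap seeds (log2 4.21, 19.7-fold, where 29.9% of the background sequences were higher in cotyledon without overlap). With median of ratios scaling that log2 difference was 3.63, and 24.0% of 574 sequences were higher in cotyledon without overlap. A cotyledon was the highest library of 16.1% of the background sequences. As these comparisons chose miR3522, nothing is read from how its call compares with these shares.

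Pods and seeds were far apart in level, and as organ and week differ together between them, the effects of each cannot be told apart. The pods were at 273, 189 and 210.0 TP5M in weeks 1, 2 and 3, and the seeds at 3753, 3381 and 4975 in weeks 6, 8 and 10. All seeds were thus above all pods, with an 18.0-fold difference of means (log2 4.14). Of the background, 10.1% were higher in seed without overlap, and the median log2 difference over all 595 was −0.64. Median of ratios scaling gave 4.97 for gso-miR3522a. Between the nearest weeks sampled, week 6 seed was 17.9-fold above week 3 pod. There 4.71% of the background were at least 4-fold higher in the seed, the threshold used for all pairs of single libraries.

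Within each of these organs the stages were close. Week 3 against week 1 of pod differed by −0.37 on the log2 scale and week 10 against week 6 of seed by 0.41, both short of 4-fold. Pods were also below flowers without overlap (log2 −1.53, where 11.9% of the background did the same), since the lowest flower library stood at 404 TP5M and the highest pod at 273.

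Seed and leaf overlapped (log2 −0.15), and this small difference changed sign to 0.35 when libraries were scaled by the median of ratios and to 1.08 without the old leaf at trefoil and the senescent leaf. Stem and leaf overlapped as well, with a log2 difference of 0.46 although the mean of stem was below that of leaf. It was −0.35 without the new leaf at bud differentiation and 1.70 without the old leaf at trefoil and the senescent leaf. Also overlapping were flower and leaf (log2 −2.76) and pod and leaf (log2 −4.29). In both of the latter comparisons 1 leaf library, the new leaf at bud differentiation at 260.2 TP5M, was not above all the others. Without it, leaf no longer overlapped flower or pod (log2 −3.58 and −5.11). Pod and leaf did not overlap without the week 1 pod either (log2 −4.44). The shares of background sequences lower without overlap were 1.34% for flower and 3.70% for pod against leaf.

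Among leaves, gso-miR3522a was higher in the older leaf of each stage. At trefoil it was 5380 TP5M in new leaf (5230 to 5533) and 36538 in old leaf (36128 to 36951), a 6.79-fold difference. At bud differentiation new leaf held 260.2 TP5M (233 to 290) and old leaf 2336 (2243 to 2432), an 8.98-fold difference. Senescent leaf, at 16615 TP5M (16360 to 16873), was 7.11-fold above the latter (log2 2.83, or 3.68 with median of ratios scaling).

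The older leaf was thus higher in each of these pairs, by more than 4-fold and with counting intervals far apart. However, each pair is of single libraries with no replicates. In the background 11.1%, 12.1% and 6.55% of the 595 sequences rose by 4-fold or more in the same pairs, in that order. New leaves stood at 3731 TP5M at germination and 5380 at trefoil, a log2 difference of 0.53 that became −0.06 with median of ratios scaling, and were lowest at bud differentiation.

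Cotyledons also held more of gso-miR3522a at the later stage, with a 2.26-fold difference of old cotyledon at trefoil over germination cotyledon, short of 4-fold. Stems went the other way, with 7748 TP5M at germination (7591 to 7909) and 4822 at trefoil (4693 to 4953). This step of −0.68 on the log2 scale shrank to −0.12 with median of ratios scaling. Within the germinating seedling, cotyledon was 13.1-fold above new leaf, 6.32-fold above stem and 57.2-fold above root, where 17.6%, 7.39% and 25.2% of the background were at least 4-fold higher in cotyledon. With median of ratios scaling the log2 differences were 2.90, 3.07 and 4.03 in place of 3.71, 2.66 and 5.83. At trefoil, old cotyledon was 3.02-fold above old leaf, short of 4-fold. It was 20.5-fold above new leaf and 22.9-fold above stem, where 17.5% and 13.4% of the background were at least 4-fold higher. The root library had the smallest share of its tags in the table, 2.04%, against 4.61% to 17.5% in the others.

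Among the flower libraries gso-miR3522a was 404 TP5M in the flower bud, 934 in buds before flowering and 956 at 5 days after flowering, the last pair with overlapping counting intervals. The florescence libraries of 2 dates, 407 and 774 TP5M, had counting intervals that did not overlap. Flower bud and leaf bud differed from new leaf of the same stage by 0.62 and −0.39 on the log2 scale, short of 4-fold in both cases.

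**Figure D2:**
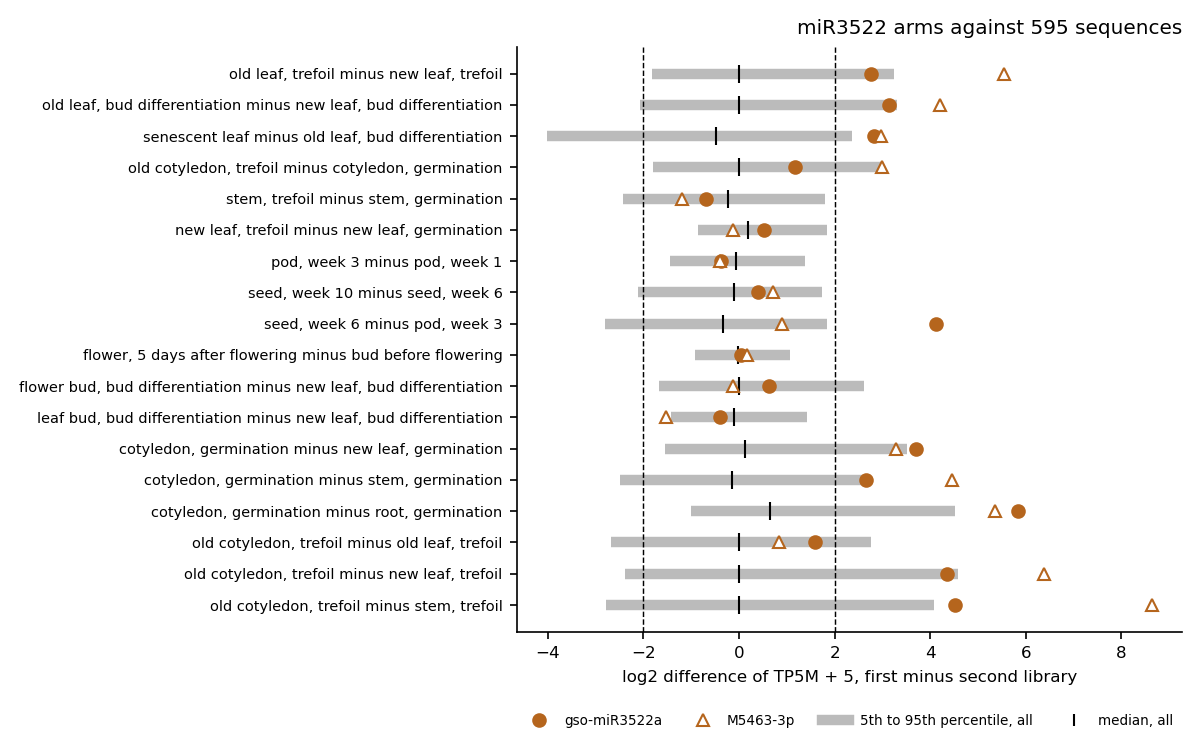
Log2 difference of TP5M + 5 between single libraries for gso-miR3522a (circles) and M5463-3p (triangles), in 18 pairs. Grey bars run from the 5th to the 95th percentile of the 595 background sequences, black ticks are their medians, and dashed lines mark 4-fold. Both arms lie past 4-fold in the comparisons of older with younger leaf, and only the circle does so for week 6 seed against week 3 pod.

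The 22 nt form gso-miR3522b was rare. It reached 81.2 TP5M in old cotyledon (77 reads), 27.4 in germination cotyledon (37 reads) and 19.2 in old leaf at trefoil (16 reads). Elsewhere it was at 6 reads or fewer, and in 7 libraries, all pods among them, no read was found, where 3 reads would be 2.53 to 4.14 TP5M. The libraries highest in the 21 nt form were thus also highest in the 22 nt form.

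Plant microRNAs of 22 nt can trigger phased secondary small RNAs from their targets, which those of 21 nt do less often. Over all libraries 169 reads were 22 nt and 260306 were 21 nt, so the longer form made up 0.0649%. Per library its share of both forms was 0.0734% in old cotyledon (exact binomial 95% interval 0.0580 to 0.0918) and 0.0560% in germination cotyledon (0.0394 to 0.0772). The intervals of all 23 libraries shared the range from 0.0580% to 0.0772%, so a difference in length between organs was not detectable at this depth.

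The 19 nt entry miR3522, the soybean name in the table, was found at 15 reads in all. There were 6 reads in trefoil stem (5.46 TP5M), 5 in senescent leaf (5.15), 2 in germination stem (1.69) and 1 each in the first florescence (1.22) and 5 days after flowering (0.92). No read of it was found in either cotyledon, where gso-miR3522a was highest and where 3 reads would be 2.22 and 3.16 TP5M. Of the 3 members, gso-miR3522a and gso-miR3522b passed the background's minimum mean of 5 TP5M.

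The opposite arm M5463-3p was not rare. Its mean was 3471 TP5M, the 26th highest of the table, with a median of 268. Its order of libraries was another one. Senescent leaf was highest at 34199.95 TP5M (33833 to 34570), where it ranked 4th of all sequences, above gso-miR3522a. Old cotyledon held 21173, old leaf at trefoil 11806, old leaf at bud differentiation 4358 and germination cotyledon 2654.

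All 4 organs called old or senescent in the labels were thus among its 4 highest libraries. The other 18 libraries ran from 48.2 TP5M in trefoil stem to 969 in the other-date florescence. By organ the means were 11914 ± 13095 TP5M in cotyledon (SD over stages, n = 2), 8519 ± 13362 in leaf (n = 6), 613 ± 349 in flower (n = 5), 316 ± 219 in seed (n = 3), 194 ± 30.9 in pod (n = 3) and 82.0 ± 47.8 in stem (n = 2). Cotyledon and leaf overlapped, with a log2 difference of 2.10 and a 1.40-fold difference of means. It was 0.60 without the old cotyledon, 3.59 without the germination cotyledon and 3.86 without the old leaf at trefoil and the senescent leaf, with overlap in each case.

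Old against new leaf differed more in M5463-3p than in gso-miR3522a. At trefoil the values were 11806 TP5M in old leaf and 248 in new leaf, a 47.6-fold difference that 8 of the 595 background sequences exceeded on the log2 scale. At bud differentiation they were 4358 and 232, an 18.8-fold difference that 18 exceeded. Both differences were larger than those of gso-miR3522a in the same libraries. Senescent leaf was a further 7.85-fold above old leaf of bud differentiation. Old cotyledon was 7.98-fold above germination cotyledon, a step of log2 2.99 against 1.17 for gso-miR3522a, where 9.24% of the background rose 4-fold or more.

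In stem and seed the arms differed in the other direction. M5463-3p was lower in both stems than in any leaf (log2 −4.45), as were 5.04% of the background, and just 3 sequences had a larger difference in that direction. For gso-miR3522a the same log2 difference was 0.46. Between pod and seed M5463-3p overlapped (log2 0.38), a difference that was −0.14 without the week 10 seed and 1.09, without overlap, when the week 8 seed was left out, whereas gso-miR3522a differed by 4.14. It was lower in pod than in leaf without overlap (log2 −3.15, 3.70% of the background), a call that was lost with median of ratios scaling.

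The share of M5463-3p in the reads of both arms followed from this. It was 0.990% in trefoil stem (Wilson 95% interval 0.758 to 1.29) and 1.47% in germination stem. Seeds were at 7.94%, 2.66% and 9.63% in weeks 6, 8 and 10, root at 6.53%, and new leaf at 6.74% at germination and 4.41% at trefoil. In all of these gso-miR3522a was at least 9.38-fold higher in reads.

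Near equality was found in pods, with 45.7%, 48.9% and 45.0% in weeks 1, 2 and 3, a mean of 46.6 ± 2.07% (SD, n = 3). Flowers averaged 44.4 ± 8.01% (n = 5), from 34.4% in flower bud to 55.6% in the other-date florescence. New leaf at bud differentiation stood at 47.2% (43.3 to 51.1), more than 10-fold the share in trefoil new leaf, and the leaf bud at 28.1%.

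M5463-3p had more reads than gso-miR3522a in 3 libraries, with intervals wholly above 50% that cover counting error alone. They were senescent leaf at 67.3% (66.9 to 67.7), old leaf at bud differentiation at 65.1% (64.0 to 66.2) and the other-date florescence at 55.6% (53.0 to 58.2). Old leaf at trefoil was at 24.4%, old cotyledon at 16.1% and germination cotyledon at 5.14%. In each pair of an older and a younger leaf or cotyledon of the labels, the share was larger in the older one, and the intervals did not overlap.

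**Figure D3:**
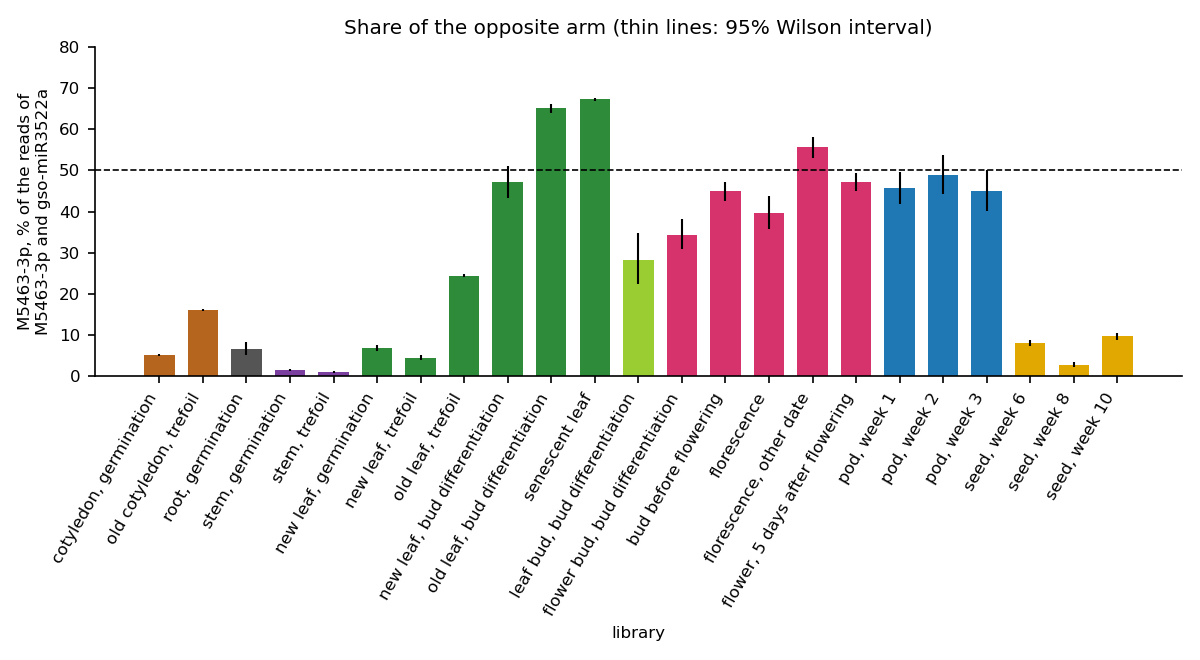
Share of M5463-3p in the summed reads of M5463-3p and gso-miR3522a, in percent, for each library, coloured by organ as in the plot of levels. Thin lines are 95% Wilson intervals and the dashed line marks 50%. Stems lie at 0.990% and 1.47%, pods near 46%, and senescent leaf highest at 67.3%.

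From the lowest to the highest library the ratio of the arms changed 206-fold. Other hairpins of this table also had changing ratios. Of 129 other hairpins with both arms listed under 1 name and a mean of at least 5 TP5M for each, the leading arm differed between libraries in 76, and 21 had a wider range of the log2 ratio than the 7.54 of miR3522 (median 4.74). Where both arms averaged at least 100 TP5M, 8 of 28 had a wider range. These hairpins are not all separate, since several share an arm sequence. For example, M0560, M1341 and M1565, all with a wider range, share the arm averaging 322.31 TP5M. A lead was counted from the levels alone, without counting intervals, so the counts of hairpins are an upper description.

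Across the 23 libraries the log2 levels of the 2 arms had a Pearson r of 0.64 and a Spearman rho of 0.51. Without the 2 libraries farthest from the median of gso-miR3522a these were 0.50 and 0.38. The points share libraries and their totals, and organs recur among them, so this is a description. For the 2 lengths gso-miR3522a and gso-miR3522b the values were 0.87 and 0.86. These rest on few reads, as gso-miR3522b had a median of 1.22 TP5M, below the pseudocount of 5. It had 6 reads or fewer outside the cotyledons and the old leaf at trefoil.

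The levels most like those of gso-miR3522a over the 23 libraries were those of sequences of the miR397 and miR398 families. miR397 targets laccases and miR398 copper/zinc superoxide dismutases, and in Arabidopsis both rise when copper is short. By Pearson r of log2(TP5M + 5) the 5 most alike of 592 sequences were M3014-5p (0.92), which shares 19 bases in a row with miR397a, miR397b-3p (0.92), miR397a (0.86), M3039-3p (0.83), which contains all 21 bases of miR398c, and miR398c itself (0.83). As M3014-5p overlaps miR397a and M3039-3p overlaps miR398c in sequence, these are fewer than 5 separate microRNAs. miR397a is also listed as miR397b-5p, the opposite arm of miR397b-3p, so both arms of the miR397b hairpin are among the 5.

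M3014-5p was 20671 TP5M in old cotyledon, 4725 in germination cotyledon and 3955 in old leaf at trefoil, and between 29.4 and 2036 elsewhere. miR398c was 55156 TP5M in old cotyledon, 17319 in old leaf at trefoil and 16893 in germination cotyledon, with senescent leaf next at 7858. Like gso-miR3522a, both were higher in old than in new leaf of the same stage. miR397b-3p was 1358 and 1080 TP5M in the cotyledons and at 3.10 in the new leaf of bud differentiation.

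With the cotyledons left out, r was 0.87 for M3014-5p, 0.87 for miR397b-3p, 0.78 for miR397a, 0.72 for M3039-3p and 0.72 for miR398c. The first 3 were then still among the 5 most alike, and they were so by Spearman rho as well. The median r over the 592 sequences was −0.20.

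**Figure D4:**
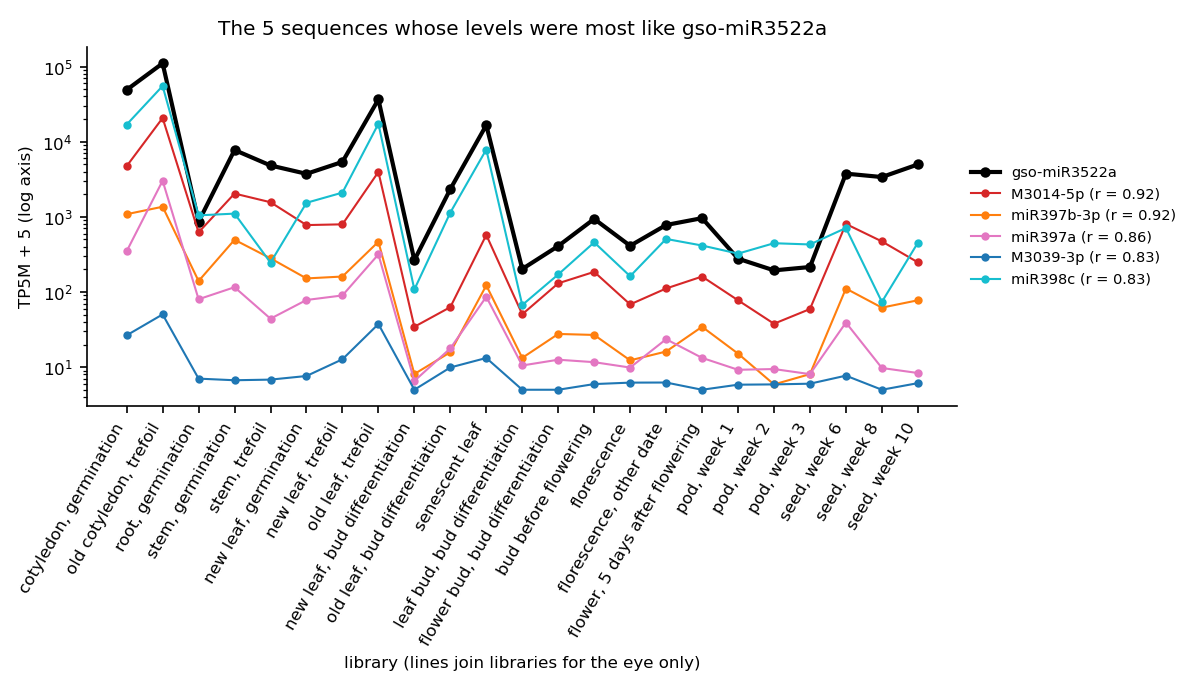
TP5M + 5 on a log axis for gso-miR3522a (black) and the 5 sequences with the highest Pearson r to it, over the 23 libraries. Lines join libraries for the eye only. All are highest in old cotyledon, as gso-miR3522a is, whereas in pods miR398c stood above gso-miR3522a, at 319 to 441 TP5M.

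The least alike were M7819-3p (r = −0.82), M3288-5p (−0.79) and M5007-5p (−0.79), all 22 nt long and without a family name. M7819-3p was 32.1, 44.3 and 38.9 TP5M in pods of weeks 1, 2 and 3 and 2.22 and 1.05 in germination and old cotyledon. M5007-5p was highest in the flower bud (54.7 TP5M) and the leaf bud (52.4), with no read in either cotyledon. M3288-5p was highest in the week 1 pod at 16.0 TP5M.

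Lists of families were set beside this pattern, chosen with earlier results of these data known. Of 9 named sequences of copper families (sought under miR397, miR398, miR408, miR857 and miR2119), 8 were highest in a cotyledon, against 16.1% of all 595 sequences. Of the 9, 3 were above every leaf in both cotyledons, against 9.75%. With median of ratios scaling 2 were, against 9.41%. The median log2 difference of cotyledon minus leaf over this list was 3.51, against −0.21 for all sequences and 4.05 for gso-miR3522a. The list holds miR397b-3p and miR398c, already named as among the most alike, so it is no separate evidence of that likeness. miR408a-3p, which targets plantacyanins and laccases, was 6919 TP5M on average in cotyledon (6055 and 7783) and 701 ± 1189 in leaf (SD, n = 6).

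The other lists had medians between −0.87 and 0.34. Their counts are to be read beside the shares over all 595 sequences, 16.1% highest in a cotyledon and 9.75% above every leaf. Of 26 other named sequences of legume families, 7 (26.9%) were highest in a cotyledon and 3 (11.5%) were above every leaf there. The median log2 of this list was 0.34. Among the legume sequences miR1509a was 17690 and 19285 TP5M in the cotyledons and 5860 ± 1772 in leaf. In the same list miR1507a, a regulator of NLR defence genes, was 19531 on average against 18032 ± 6629. Means of miR2118a-5p were 4814 and 14727 ± 20284.

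The 16 defence gene regulators, many of them also in the legume list, had a median of 0.19, with 5 (31.2%) highest in a cotyledon. Above every leaf was 1 of them (6.25%), gso-miR2109 (5823 against 3322 ± 1154 TP5M). The 12 phase change sequences had a median of −0.87, with 2 (16.7%) above and 4 below every leaf (5.88% of the background were below) and none highest in a cotyledon. Their named members went both ways. miR156c, a repressor of SPL genes, averaged 4959 TP5M in cotyledon and 1256 ± 1079 in leaf, and miR156a 5078 against 2705 ± 3117. miR172a, a repressor of AP2-like genes, was at 13.7 against 635 ± 442. The 98 sequences of ancient families had a median of −0.05, with 13 (13.3%) above and 9 below every leaf and 17 (17.3%) highest in a cotyledon. Over all 595 sequences 9.75% were above, 5.88% below and 16.1% highest in a cotyledon. The most abundant members of the ancient families were miR159a-3p, miR166a-3p and miR168a, a regulator of Argonaute 1. None of these was above every leaf in both cotyledons.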

How the data were processed

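Small RNA of 23 soybean organ and stage samples was gel-purified after TRIzol extraction and sequenced, per the labels' protocols. The deposited table has 3933 entries. Its values are a signal in TP5M, tags per 5000000 tags, per the file headers. The submitters' processing notes list BWA with neither role nor version. No source used here gives the mapping settings.

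Entries with the same sequence were merged by their maximum (2839 sequences). The step between low values gave the worth of 1 read, and the 28838 values at or below 200 reads came out whole (100.0%, tolerance 0.1 read). From these reads came library totals, exact Poisson intervals, and Wilson or exact binomial intervals. The background was the 595 sequences averaging 5 TP5M or more, with a pseudocount of 5 on log2 differences. Organs were called different where they did not overlap, and pairs of single libraries at 4-fold or more. No test between groups was run and no count model fitted, since there are no replicates and miR3522 was chosen by its levels in all 23 libraries. Duplex energy came from RNAduplex of ViennaRNA 2.7.2. One hairpin whose arms hold identical values was left out of the arm ratios.

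The members, lists and comparisons were chosen with earlier results of these data known. Named sequences were the members, the sequence of the overlapping hairpin, the 5 most and 3 least alike by r, neighbours in rank in the cotyledons, and the 3 most abundant of each list. The arm ratios and the analysis without the 2 highest leaf libraries were added after seeing the data, as were the comparisons of old cotyledon with the other organs at trefoil. Alternatives were other pseudocounts (1 and 20), median of ratios scaling over 282 sequences, no filter, the bracket number, merging by mean, and leaving out each library. The overlap and read recovery code was tested on simulated data. Python 3.11.15, pandas 2.3.3 and scipy 1.17.1 were used.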

Additional observations from a re-analysis of the deposited data

Results flagged for a closer look

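Among the 6 leaf libraries M5463-3p was far above the others in senescent leaf, at 34199.95 TP5M, with the next leaf library at 11806. Likewise gso-miR3522b was far above the other leaves in old leaf at trefoil, at 19.23 TP5M (16 reads), with the next at 6.18. The gap to the next leaf library, as a share of the range over leaves, was 0.659 and 0.679, above the limit of 0.625 used to screen 6 samples. These values also chose miR3522 or share its libraries, so this marks a library to look at and is no test. Chance flags about 1 in 20 groups where values have a normal spread. The levels were screened unlogged, on a scale where they are skewed, so the rate may be higher here. Leaf libraries also differ in age by design.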

How the results depend on the processing

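No paired analysis was possible because the labels give no replicate numbers. Organs of the same stage were compared as single libraries. Other than the choice of column match, 195 of 202 alternative values of the organ comparisons and 136 of 144 of the pairs of libraries kept their direction and call, or moved by less than the spread. These totals include 16 and 36 values from merging by mean, which could not differ because each sequence compared had 1 entry. Likewise, a pseudocount cannot change whether organs overlap. All 8 values of pairs that moved did so with median of ratios scaling, where 28 did not. Leaving out 1 library at a time gave, for gso-miR3522a on the log2 scale, −3.58 to −2.16 in flower minus leaf, −5.11 to −3.68 in pod minus leaf, 3.62 to 4.79 in cotyledon minus seed, 3.98 to 4.29 in seed minus pod, −1.70 to −1.39 in pod minus flower and −0.97 to 0.46 in seed minus leaf. For M5463-3p it gave 3.37 to 6.36 in cotyledon minus seed, −5.04 to −3.59 in stem minus leaf and −3.73 to −2.29 in pod minus leaf. Median of ratios scaling moved the median log2 difference of all sequences by −0.34 (flower minus leaf), 0.48 (seed minus pod), 0.23 (seed minus leaf), −0.17 (pod minus leaf), 0.11 (pod minus flower) and −0.11 (stem minus leaf).

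The column match decided the organs. With the bracket number the highest value of gso-miR3522a would belong to new leaf at germination and the next to the week 2 pod. Its log2 differences would be −2.09 (cotyledon minus leaf), 0.56 (cotyledon minus seed), 0.36 (pod minus leaf), 2.78 (pod minus flower), −3.01 (seed minus pod) and −2.65 (seed minus leaf). The cause of the difference between the label numbers was not tested. M5463-3p would differ by −5.32 for cotyledon minus leaf and −3.15 for cotyledon minus seed. Among pairs of libraries, those that would turn with a call by either number were, for gso-miR3522a and M5463-3p in that order, old minus new leaf at trefoil (−3.14 and −4.20), senescent minus old leaf (−4.11 and −5.31), week 3 minus week 1 pod (2.12 and 2.08), and germination cotyledon minus new leaf (−4.52 and −8.64), stem (−0.16 and −2.25) and root (−2.92 and −7.79), and old cotyledon minus new leaf (−3.53 and −5.73) and stem (−1.02 and −1.40) at trefoil. For gso-miR3522a alone they were old minus germination cotyledon (−4.58), trefoil minus germination new leaf (−5.56) and week 6 seed minus week 3 pod (−1.99). Differences short of 4-fold by both numbers that would change sign were, for gso-miR3522a, week 10 minus week 6 seed (−0.27), flower bud minus new leaf (−0.56) and old cotyledon minus old leaf (−0.39), and for M5463-3p the last of these (−1.53).

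Of the 5 sequences most like gso-miR3522a, 3 were shared by Spearman rho, 3 without the cotyledons and 4 with a pseudocount of 1. The number of background sequences above every leaf in both cotyledons was 58, and 117 of 2839 without the filter, and those below every leaf 35 and 55. Seeds above every pod numbered 60, 190 without the filter and 108 with median of ratios scaling. Germination cotyledon at least 4-fold above root numbered 150, or 79 with median of ratios scaling. The same counts for senescent above old leaf were 39 and 62, and for week 6 seed above week 3 pod 28 and 43. With a pseudocount of 20 they were 25 for senescent leaf, 18 for week 6 seed, 68 in place of 105 for cotyledon above new leaf and 27 in place of 44 for cotyledon above stem, and with a pseudocount of 1 week 6 seed gave 48. Cotyledon above seed numbered 178 and 294 without the filter. The median log2 of phase change sequences was −0.12 without the filter. Shallow counts limit the 22 nt and 19 nt forms, with 169 and 15 reads in all.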

Other observations

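The sequence whose levels were most like those of the opposite arm M5463-3p was M3039-5p, the 5p arm of the hairpin whose 3p arm contains miR398c. It was chosen after its values were seen. Over the 23 libraries Pearson r of log2(TP5M + 5) was 0.98 and Spearman rho 0.94, with r of 0.98 without the cotyledons and 0.97 without the 2 libraries highest in M5463-3p. The next most alike were M1976-5p (r = 0.87) and miR408a-5p (r = 0.81). The libraries are shared by all of these values, so they are a description.

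M3039-5p was 1317 TP5M in senescent leaf, 1256 in old cotyledon, 723 in old leaf at trefoil, 310 in old leaf at bud differentiation and 291 in germination cotyledon, the 5 highest libraries of M5463-3p in the same order. It stood at 2.73 TP5M in trefoil stem, where M5463-3p was lowest. Its share of the reads of M3039-5p and miR398c ran from 0.484% in root to 21.4% in old leaf at bud differentiation. This share had a Pearson r of 0.77 and a Spearman rho of 0.78 with the share of M5463-3p, both taken as untransformed percents. Another measure, the log2 arm ratio with a pseudocount of 5, rarer arm over the other, was used for the other 129 hairpins with both arms listed. Their ratios had a median r of 0.02 with that of miR3522, a value not comparable with the 0.77 of the percent shares. They ran from −0.86 to 0.87, and 4 were at 0.8 or above. M3039 is among them at −0.54, as the ratio of M3039-3p over M3039-5p and not with miR398c.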
